A study of Homo sapiens with 6 samples.

Results

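Lysosome and autophagy genes were followed in U87 cells, an established human glioblastoma line, as a set of 39 genes given by symbol. The rule for members uses function alone, and it was set with earlier results of these data known. All 39 symbols were found among the 23290 genes of the deposited expression table. The set holds 20 hydrolases and other lumenal proteins of the lysosome, 6 lysosomal membrane proteins and 13 autophagy genes, including the transcription factors that control them. The tested cells had been infected with a retroviral vector called shC8, made to silence Caspase-8, and their controls with a retroviral scramble vector called shCTR. Both groups were grown in DMEM with 10% serum and had 3 libraries each. The series' design text calls these biological replicates and gives no account of how cultures or infections were kept apart, so each p-value reflects only how much these libraries vary, which may be technical. A single line and vector design stand behind all results, and no label says how many hairpins were used or what they match. Levels are FPKM, fragment numbers divided by transcript length and library total. The division by length allows comparison between genes, while comparison between libraries depended on the scaling. Of genes with a limma adjusted p under 0.05, 59.1% were higher in shC8 with the deposited values. That share was 46.2% with median-of-ratios scaling and 49.4% with quantile normalization.

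Lysosomes are acidic organelles that break down proteins, glycans and lipids taken up from outside or delivered from inside the cell. Soluble hydrolases do the cutting, membrane glycoproteins such as LAMP1 line the organelle, and a proton pump, the V-ATPase, acidifies it. In autophagy the kinase ULK1 and the Beclin-1 lipid kinase complex start a membrane that closes around cytoplasm, ATG proteins attach LC3 and GABARAP proteins to it, and the vesicle fuses with a lysosome. The related factors TFEB, TFE3 and MITF bind E-box motifs in the promoters of many lysosomal genes, and the kinase complex mTORC1, which sits on the lysosome, keeps TFEB and TFE3 out of the nucleus.

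CASP8, the targeted gene, was at 4.39, 4.46 and 4.44 FPKM in shC8 1, 2 and 3, against 15.1, 14.9 and 13.4 FPKM in shCTR 1, 2 and 3. The level in shC8 was 30.6% of that in shCTR, a difference of -1.51 on the log2(FPKM + 1) scale (SE 0.0705, limma adjusted p = 0.000206). With 3 libraries against 3, the smallest p an exact permutation test can give is 0.1, and CASP8 reached it (two-sided). Absolute depth was unknown, and the steps between the lowest values placed the other 5 libraries at 1.08 to 1.21 times the depth of shCTR 1. Numbers in the deposited column names, of unstated meaning, form a lower range (shC8 1, shCTR 1 and shCTR 3) and an upper range (shC8 2, shC8 3 and shCTR 2). Among glial markers, VIM was abundant, CD44 was lower in shC8 (-0.45, SE 0.0764, limma adjusted p = 0.0131) and NES higher (0.60, SE 0.132, limma adjusted p = 0.0293), whereas GFAP, OLIG2, SOX2 and S100B stayed under 1 FPKM and OLIG1 and AQP4 were listed at 0 in all 6 libraries. Markers of macrophages and microglia, cells rich in cathepsins, summed to 138 to 155 FPKM in shC8 and to 150 to 158 FPKM in shCTR, almost wholly from CD68, itself a lysosomal membrane protein. Of the other 11, AIF1, C1QA, C1QB and P2RY12 were listed at 0 in every library, and none of the rest was above 1.85 FPKM in any. Among these low markers, TMEM119 had 1.1, 1.85 and 1.25 FPKM in shC8 against 0.547, 0.448 and 0.336 FPKM in shCTR, without overlap, and it passed with no filter on low values (0.72, limma adjusted p = 0.0373). CD163 also did not overlap, with 0.0571 to 0.0911 FPKM in shC8 and 0.0112 to 0.0362 FPKM in shCTR (limma adjusted p = 0.12 with no filter). The part of these markers in the results was not tested. In bulk RNA a change in every cell and a change in the share of cells that express a gene cannot be told apart. Exons of 18 members overlap exons on the opposite strand by at least 50 bases, and whether counting used the strand was not given in the sources used here. Exons of another annotated gene on the same strand, which strand cannot separate, overlap those of CTSD (1304 bases) and TPP1 (756). The same holds for HEXA (617), MCOLN1 (169), GLB1 (83) and NPC2 (72). Endothelial markers summed to 1 to 1.15 FPKM in shC8 and to 0.871 to 1.14 FPKM in shCTR.

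Most tested members, 28 of 36, did not pass, and those that did were mostly higher in shC8, by modest amounts. Of hydrolase and lumenal genes 4 of 18 were higher (22.2%) and 0 lower, and of membrane genes 2 of 6 (33.3%) and 1. Of autophagy genes 1 of 12 was higher, and this 8.33% is near the 7.14% of all genes. Whether these classes differ from each other was not tested. Of the 39 genes, 36 averaged 1 FPKM or more across all 6 libraries and were tested, and the lowest group mean among these was 1.83 FPKM. CTSH, CTSZ and TFEB were below that minimum. Higher in shC8 were 7 of 36 (CTSA, CTSK, GAA, PSAP, LAMP1, LAMP2 and ULK1), or 19.4%, against 7.14% of all 11598 genes tested (limma, adjusted p under 0.05). Lower was 1 of 36, NPC1, or 2.78%, against 4.94% of all genes. The median difference of the 36 was 0.15 on the log2(FPKM + 1) scale, with values between -0.59 and 0.62, and the median of all genes was 0.04. All 3 shC8 libraries lay above all 3 shCTR libraries for 15 of 36 genes, or 41.7%, against 21.7% of all genes, and below them for NPC1 alone, against 13.1% of all genes. With the replicate number as a block, 13 members were higher and 3 lower, while 1862 of all genes (16.1%) were higher and 1224 (10.6%) lower. No label states that these numbers pair the libraries, and the pairing was inferred from these same data. At an unadjusted p under 0.05, 15 members were higher and 2 lower, against 18.3% and 11.4% of all genes. Without shC8 1, 7 members were higher and 2 lower, and without any other single library 2 or 3 were higher and 0 or 1 lower. Of all 11598 genes, 261 to 699 were higher and 216 to 647 lower in the fits without 1 library. With median-of-ratios scaling 5 members were higher and 1 lower, and with quantile normalization 6 and 1. Of all calls, 59.1% of 1401 were higher with the deposited values, 46.2% of 1406 with median-of-ratios scaling and 49.4% of 1446 with quantile normalization.

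**Figure D1:**
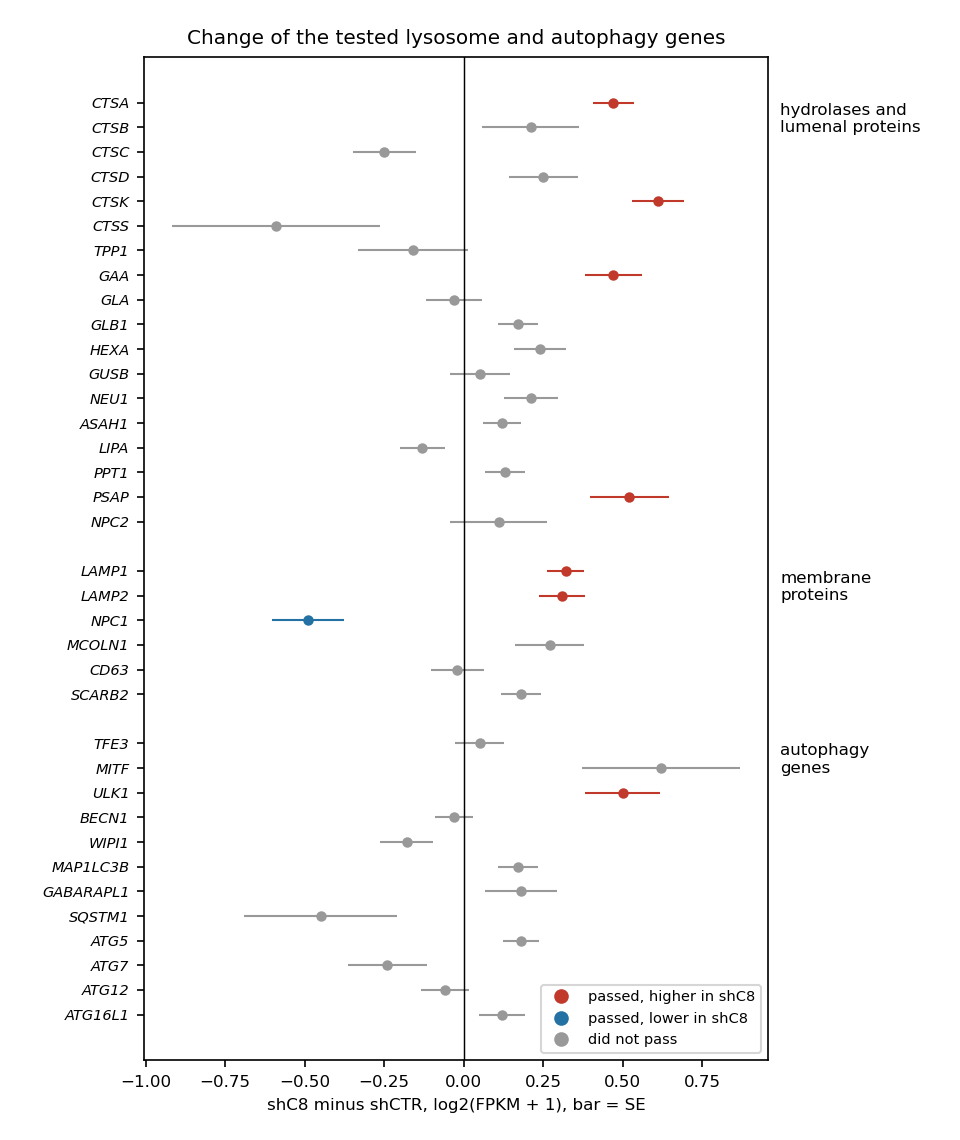
Difference between shC8 and shCTR for the 36 tested members on the log2(FPKM + 1) scale (points, with the limma SE as bars), grouped into hydrolases and lumenal proteins, membrane proteins and autophagy genes. Red points passed and were higher in shC8, the blue point (NPC1, -0.49) passed and was lower, and grey points did not pass.

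E-boxes stood close to the start of several members, and the 4 promoters below are shown because they hold the longest form searched. Of these members LAMP1, GAA and CTSA were higher in shC8 and MCOLN1 did not pass. Among all 204 tested genes with this form 8.82% were higher, against 7.03% of all tested genes with a promoter window. RefSeq promoter windows, from 250 bases before to 50 bases after each annotated gene start in GRCh38.p14, were found for 32 of the 39 members. Not among them were ASAH1, CTSB, CTSK, CTSS, HEXA, LAMP2 and PSAP. Of the other members that were higher in shC8, CTSK, LAMP2 and PSAP thus had no window, and ULK1 had one without a match. A RefSeq start can lie inside the span that GENCODE gives a gene, as for CTSA and GAA. Both strands were covered, because the motifs CACGTG and TCACGTGA read the same on either strand, and the second contains the first. TCACGTGA was found in a window of 4 of the 32 members, or 12.5%, against 1.18% of all 27305 genes with a window. CACGTG was found for 7 of 32, or 21.9%, against 8.77% of all such genes. Among tested genes with a window, TCACGTGA was found for 4 of 29 members, or 13.8%, against 2.47% of all 8273, and CACGTG for 7 of 29, or 24.1%, against 13% of all 8273. Capitals mark the matches, all strands are plus, and stretches run 5′ to 3′ from 10 bases before the first match to 10 bases after the last. LAMP1 is shown at chr13:113297037-113297254, GAA at chr17:80101494-80101566, CTSA at chr20:45891283-45891326 and MCOLN1 at chr19:7522572-7522626.
LAMP1: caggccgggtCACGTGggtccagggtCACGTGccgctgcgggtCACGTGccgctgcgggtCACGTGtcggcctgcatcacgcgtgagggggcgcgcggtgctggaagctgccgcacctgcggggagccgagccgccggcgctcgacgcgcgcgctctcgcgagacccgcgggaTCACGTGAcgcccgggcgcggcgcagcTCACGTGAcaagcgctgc
GAA: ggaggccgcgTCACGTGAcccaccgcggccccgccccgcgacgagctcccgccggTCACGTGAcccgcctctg
CTSA: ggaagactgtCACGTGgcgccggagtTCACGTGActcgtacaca
MCOLN1: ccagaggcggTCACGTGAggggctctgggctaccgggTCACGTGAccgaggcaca

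The LAMP1 stretch held 6 copies of CACGTG, 4 of them spaced regularly between 192 and 137 bases upstream of the start and 2 within the longer form near the start. GAA and MCOLN1 each had 2 copies of the longer form, and CTSA had 1 beside a shorter one. NEU1, CTSD and CD63 had 1 copy of CACGTG each. A match is a run of letters and does not show that a factor is bound. Across the 8273 tested genes with a window, 7.03% were higher and 4.84% lower in shC8. The corresponding shares were 8.82% and 3.92% of the 204 genes with TCACGTGA, and 5.3% and 3.53% of the 1075 with CACGTG. The median difference was 0.07 for genes with TCACGTGA and 0.04 for genes with CACGTG, beside 0.04 for all genes with a window.

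**Figure D2:**
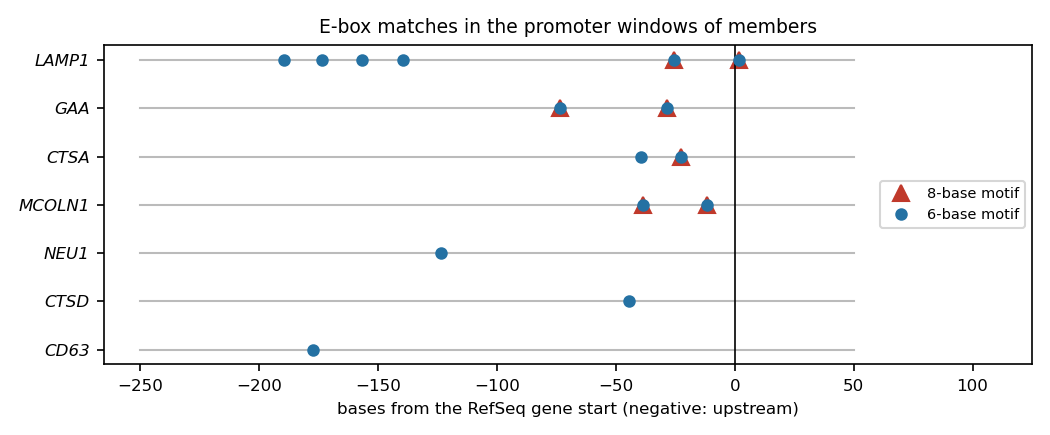
Positions of E-box matches in the promoter windows of the 7 members that have one, in bases from the RefSeq gene start (vertical line), with the 250 bases upstream and 50 downstream that were searched drawn as grey lines. Red triangles mark the 8-base motif, found in LAMP1, GAA, CTSA and MCOLN1, and blue dots the 6-base motif. CD63 has 8 annotated starts and its match belongs to 1 of them.

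Among the lysosomal peptidases, CTSA and CTSK were higher in shC8. CTSA encodes cathepsin A, the carboxypeptidase that also protects the sialidase NEU1 and beta-galactosidase, and lies on the plus strand at chr20:45890144-45898820 (GRCh38, GENCODE 29). Its level was 311, 312 and 287 FPKM in shC8 1, 2 and 3, against 220, 221 and 215 FPKM in shCTR 1, 2 and 3. The lowest shC8 library stood well above the highest shCTR library, and the means were 303 ± 14 FPKM in shC8 and 219 ± 3.16 FPKM in shCTR (SD, n = 3 each). The difference was 0.47 on the log2(FPKM + 1) scale (SE 0.065, limma adjusted p = 0.00683), a ratio of means of 1.39. Exons of NEURL2, AL008726.1 and PLTP on the opposite strand overlap those of CTSA, with the longest overlap for NEURL2. NEURL2 had 0.569, 1.04 and 0.708 FPKM in shC8 against 0.761, 0.622 and 0.113 FPKM in shCTR. PLTP had 91.7, 83.1 and 77.8 FPKM in shC8 against 83.5, 73.5 and 68.9 FPKM in shCTR.

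CTSK, the collagen-cutting cathepsin K best known from osteoclasts, is on the minus strand at chr1:150796208-150808323. It had 73.7, 70.2 and 62.3 FPKM in shC8 1, 2 and 3, against 42.9, 43.4 and 47.6 FPKM in shCTR 1, 2 and 3. The groups were far apart, with a ratio of means of 1.54 and a difference of 0.61 on the log2(FPKM + 1) scale (SE 0.0809, limma adjusted p = 0.00587). CTSA and CTSK were the 2 members whose calls held in each of the 6 fits without 1 library (adjusted p up to 0.032 and 0.0291). CTSS, the gene of cathepsin S, lies 30250 bases from CTSK on the same strand and did not pass. CTSS was at 12.2, 12.9 and 8.01 FPKM in shC8, against 28.2, 15.9 and 10.4 FPKM in shCTR. The groups overlapped, and shCTR 1 was far above the other control libraries (difference -0.59, SE 0.326, limma adjusted p = 0.273).

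The remaining peptidases did not pass. CTSD, the main aspartic protease of the lysosome, had 256, 225 and 197 FPKM in shC8 and 205, 175 and 187 FPKM in shCTR, so shC8 3 lay below shCTR 1 (difference 0.25, SE 0.109, limma adjusted p = 0.173). With the replicate block its adjusted p was 0.0416. CTSB, a cysteine protease, had a difference of 0.21 (SE 0.153), CTSC, which activates serine proteases of immune cells, of -0.25 (SE 0.0991), and TPP1, a tripeptidyl peptidase, of -0.16 (SE 0.173), with limma adjusted p between 0.139 and 0.586. CTSC was level between the groups in pair 1 (0.02) and lower in shC8 in pair 3 (-0.51), and without shC8 1 it passed (difference -0.34, adjusted p = 0.0475). The aminopeptidase cathepsin H gene CTSH (0.426 to 0.663 FPKM in shC8, 0.359 to 0.517 FPKM in shCTR) and the carboxypeptidase cathepsin Z gene CTSZ (0.155 to 0.196 FPKM in shC8, 0.152 to 0.279 FPKM in shCTR) were barely detected.

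Of 6 glycosidase genes, 1 was higher in shC8 and the others did not pass. That gene was GAA, the acid alpha-glucosidase that degrades glycogen, on the plus strand at chr17:80101556-80119879. GAA had 2.93, 3.15 and 2.69 FPKM in shC8 1, 2 and 3, against 1.74, 1.98 and 1.76 FPKM in shCTR 1, 2 and 3. Its level was low in both groups, which did not overlap. The ratio of means was 1.6 and the difference 0.47 (SE 0.0889, limma adjusted p = 0.0175), or 0.65 with a pseudocount of 0.1. GAA lost its call without shC8 2, shCTR 1 or shCTR 3 (adjusted p 0.0661, 0.058 and 0.052).

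Another 3 glycosidase genes had groups that did not overlap but missed the threshold. All shC8 libraries lay above all shCTR libraries for 21.7% of all tested genes. HEXA, the alpha subunit of beta-hexosaminidase, had 32.8, 28.1 and 27.9 FPKM in shC8 and 26.4, 24.6 and 23.7 FPKM in shCTR (difference 0.24, SE 0.0817, limma adjusted p = 0.097). GLB1, the beta-galactosidase gene, had 34.7, 36.6 and 32.9 FPKM in shC8 and 31.2, 31.1 and 29.7 FPKM in shCTR (difference 0.17, SE 0.0637, limma adjusted p = 0.121). NEU1, the sialidase gene, had 28.7, 24.5 and 24.4 FPKM in shC8 and 22.8, 20.6 and 23.2 FPKM in shCTR (difference 0.21, SE 0.0847, limma adjusted p = 0.149). In each of these the margin between the closest libraries of the groups was small. HEXA and GLB1 passed with the replicate block (adjusted p = 0.0198 and 0.0463), and NEU1 with the column number range in the fit (adjusted p = 0.0343). The alpha-galactosidase gene GLA and the beta-glucuronidase gene GUSB were nearly level, with differences of -0.03 (SE 0.0877) and 0.05 (SE 0.0947).

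PSAP, the gene of prosaposin, whose fragments present sphingolipids to the hydrolases, was higher in shC8. It lies on the minus strand at chr10:71816298-71851375. Its level was 246, 232 and 195 FPKM in shC8 1, 2 and 3, against 181, 143 and 143 FPKM in shCTR 1, 2 and 3. Replicate 1 was the highest library in both groups, and shC8 3 was only slightly above shCTR 1. The ratio of means was 1.44 and the difference 0.52 (SE 0.124, limma adjusted p = 0.0356). The call ended without any library except shCTR 1 (adjusted p 0.0502 to 0.108) and without a filter on low values (adjusted p = 0.0792).

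Lipid-processing lysosomal genes did not pass. ASAH1, the acid ceramidase gene, had 67.9, 64.1 and 62.2 FPKM in shC8 and 60.1, 58.1 and 59.6 FPKM in shCTR (difference 0.12, SE 0.0596, limma adjusted p = 0.212). PPT1, the thioesterase that removes palmitate from proteins, had 52.4, 49.2 and 48 FPKM in shC8 and 46.2, 43.5 and 46.5 FPKM in shCTR (difference 0.13, SE 0.0629, limma adjusted p = 0.209). Both sets of libraries were separate by narrow margins. LIPA, which hydrolyses cholesteryl esters and triglycerides, had a difference of -0.13 (SE 0.0695), and NPC2, the lumenal cholesterol carrier, of 0.11 (SE 0.153). Over all 18 tested hydrolase and lumenal genes, 4 were higher and 0 lower by limma, with 7 and 1 at an unadjusted p under 0.05, where 18.3% of all genes were higher and 11.4% lower, and a median of 0.15. With the replicate block 7 were higher and 0 lower, where 16.1% and 10.6% of all genes were. Their summed level was 1280 to 1560 FPKM in shC8 and 1140 to 1270 FPKM in shCTR, and abundant genes such as CTSA and PSAP weigh most in it. The sums of the other member classes overlapped between the groups. Membrane proteins summed to 1280 to 1400 FPKM in shC8 and 1240 to 1360 FPKM in shCTR. Autophagy genes summed to 419 to 514 FPKM in shC8 and 459 to 625 FPKM in shCTR.

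Membrane proteins split, with both LAMP genes higher and the cholesterol exporter lower in shC8. LAMP1 (plus strand, chr13:113297241-113323672) and LAMP2 (minus strand, chrX:120427827-120469365) encode the most abundant glycoproteins of the lysosomal membrane. LAMP1 was at 193, 196 and 186 FPKM in shC8 1, 2 and 3, against 153, 151 and 157 FPKM in shCTR 1, 2 and 3. LAMP2 was at 79.2, 89.1 and 79.2 FPKM in shC8, against 62.6, 68.1 and 67.8 FPKM in shCTR. For both genes every shC8 library was higher than every shCTR library, and each had a ratio of means of 1.25. The differences were 0.32 for LAMP1 (SE 0.0591, limma adjusted p = 0.0172) and 0.31 for LAMP2 (SE 0.0725, limma adjusted p = 0.034). LAMP1 lost its call without shC8 2, shC8 3, shCTR 1 or shCTR 2 (adjusted p 0.0545 to 0.0683), and LAMP2 without any library except shC8 1 (0.0711 to 0.103). The call of LAMP2 also ended with median-of-ratios scaling (0.055), with the column number range in the fit (0.0508) and without a filter on low values (0.0534).

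NPC1, which moves cholesterol out of the lysosome, was the only member that was lower in shC8 and passed. It is on the minus strand at chr18:23506184-23586898. The values were 55.8, 54.1 and 43.4 FPKM in shC8 1, 2 and 3, against 71.6, 79.2 and 65.5 FPKM in shCTR 1, 2 and 3. All shC8 libraries were below all shCTR libraries, the mean in shCTR was 1.41 times that in shC8, and the difference was -0.49 (SE 0.112, limma adjusted p = 0.0328). Its lumenal partner NPC2 overlapped between the groups, with 154, 116 and 106 FPKM in shC8 and 134, 105 and 107 FPKM in shCTR. RMC1, listed as C18orf8 and overlapping NPC1 on the opposite strand, had a difference of -0.04 (SE 0.102). The NPC1 call ended without shC8 2, shC8 3, shCTR 1 or shCTR 2 (adjusted p 0.0692 to 0.0966), with the column number range in the fit (0.0501) and without a filter on low values (0.0714). The NPC1 difference was -0.29 in the lower column number range and -0.70 in the upper.

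The other 3 membrane genes did not pass. SCARB2, the receptor LIMP-2 that carries beta-glucocerebrosidase to the lysosome, had 78, 83.2 and 77.1 FPKM in shC8 and 67.3, 71.4 and 71.7 FPKM in shCTR, with no overlap (difference 0.18, SE 0.0619, limma adjusted p = 0.107, and 0.0438 with the replicate block). MCOLN1, the lysosomal calcium channel gene whose promoter is shown above, had 9.15, 7.74 and 9.2 FPKM in shC8 and 8, 7.06 and 6.1 FPKM in shCTR. The groups overlapped, since shC8 2 lay below shCTR 1 (difference 0.27, SE 0.108, limma adjusted p = 0.142). CD63, a tetraspanin of late endosomes and exosomes, was the most abundant member, with 917 ± 48.9 FPKM in shC8 and 932 ± 50.4 FPKM in shCTR (SD, n = 3 each), a difference of -0.02 (SE 0.0834). With the replicate block 3 of the 6 membrane genes were higher and 1 lower, where 16.1% and 10.6% of all genes were.

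**Figure D3:**
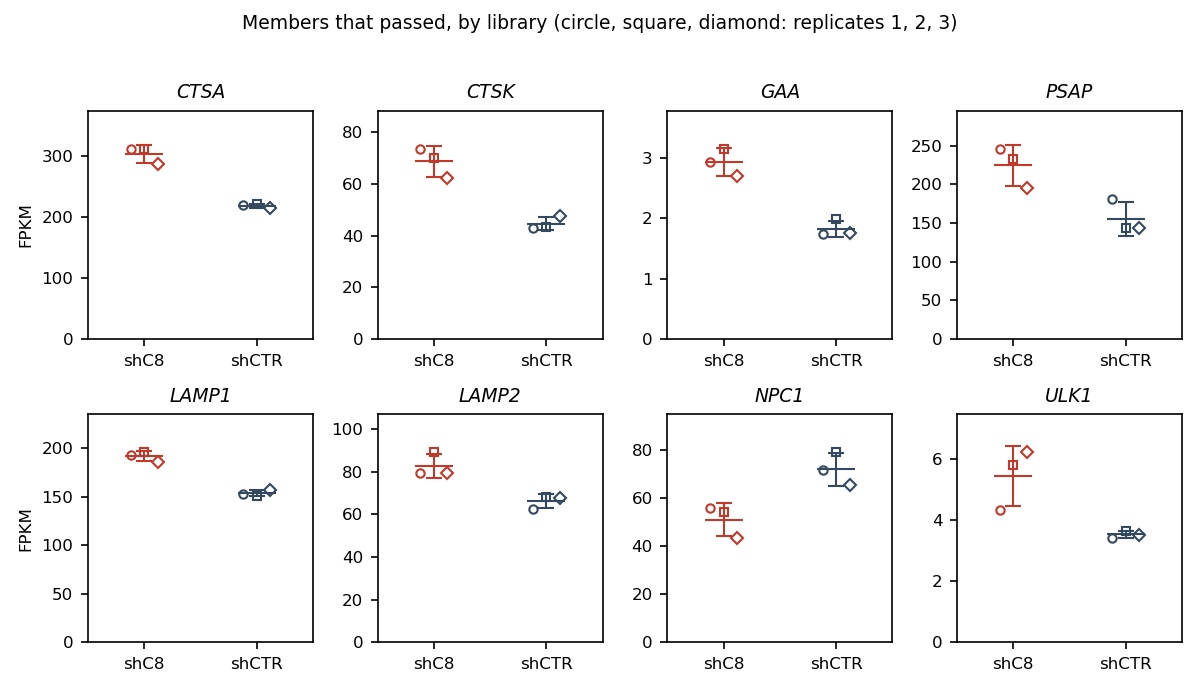
FPKM by library of the 8 members that passed, with shC8 in red on the left and shCTR in dark blue on the right of each panel, circles, squares and diamonds for replicates 1, 2 and 3, and the mean ± SD as bars. No panel has overlapping groups, and NPC1 is the one with shC8 below shCTR.

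Of the transcription factors, TFE3 was level and MITF did not pass. MITF was higher in shC8 within each pair of same-numbered libraries, a pairing that no label states. TFE3 had 19.7, 18.4 and 20.5 FPKM in shC8 and 18.3, 20.5 and 17.7 FPKM in shCTR (difference 0.05, SE 0.0772, limma adjusted p = 0.719). MITF had 8.53, 14.2 and 16.2 FPKM in shC8 1, 2 and 3, against 5.74, 8.42 and 9.81 FPKM in shCTR 1, 2 and 3. Replicate 1 was lowest in both groups, and shC8 1 lay below shCTR 3, so the groups overlapped. The difference was 0.62 (SE 0.247, limma adjusted p = 0.143). In the pairs it was 0.5, 0.69 and 0.67, and with the replicate block the adjusted p was 0.00282. Without shC8 1 the MITF difference was 0.87 (adjusted p = 0.0423), and it was 0.16 in the lower column number range and 0.78 in the upper. TFEB was scarce, at 0.848, 0.821 and 0.922 FPKM in shC8 against 0.527, 0.473 and 0.75 FPKM in shCTR. These TFEB values did not overlap, and with no filter on low values the difference was 0.24 (limma adjusted p = 0.128).

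ULK1 was the autophagy gene that passed. It encodes the kinase that starts autophagosome formation and that mTORC1 inhibits, on the plus strand at chr12:131894651-131923167. ULK1 had 4.35, 5.8 and 6.23 FPKM in shC8 1, 2 and 3, against 3.42, 3.66 and 3.53 FPKM in shCTR 1, 2 and 3. The shCTR libraries were close together, while shC8 1 was nearer to them than the other shC8 libraries were. The ratio of means was 1.54 and the difference 0.50 (SE 0.118, limma adjusted p = 0.0366). The call held only without shC8 1 among the fits without 1 library (adjusted p 0.085 to 0.116 in the others), and it ended with quantile normalization (0.0545), with median-of-ratios scaling (0.0525) and without a filter on low values (0.0846). The other early genes did not pass: BECN1, the Beclin-1 gene, differed by -0.03 (SE 0.0602) and WIPI1, which binds the lipid made by the Beclin-1 complex, by -0.18 (SE 0.0835).

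SQSTM1, the gene of the cargo receptor p62, which also acts as a scaffold in NF-kB signalling, was lower in shC8 within each pair, but its groups overlapped. It had 249, 182 and 154 FPKM in shC8 1, 2 and 3, against 367, 229 and 212 FPKM in shCTR 1, 2 and 3. Replicate 1 was highest in both groups, and shC8 1 was above shCTR 2 and 3. The difference was -0.45 (SE 0.241, limma adjusted p = 0.258), and it was -0.56, -0.32 and -0.46 in the pairs. With the replicate block the adjusted p was 0.00554. ATG7, the activating enzyme for both ubiquitin-like systems of autophagy, was likewise below its control in each pair, with 8.19, 7.91 and 6.52 FPKM in shC8 and 10.5, 9.21 and 7.7 FPKM in shCTR (difference -0.24, SE 0.123, limma adjusted p = 0.23, and 0.0322 with the block).

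**Figure D4:**
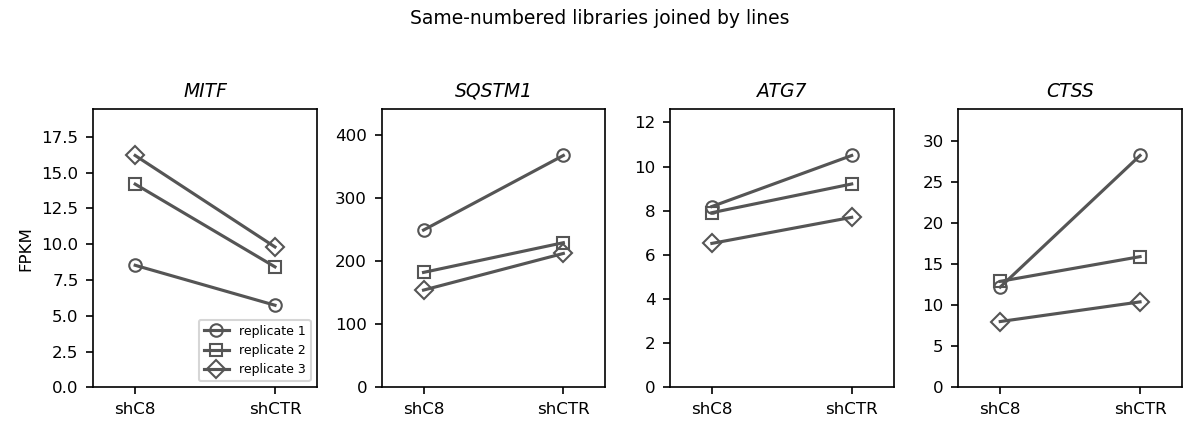
FPKM of MITF, SQSTM1, ATG7 and CTSS in shC8 (left) and shCTR (right), with same-numbered libraries joined by lines and circles, squares and diamonds for replicates 1, 2 and 3. In every pair MITF lies above its shCTR partner in shC8 and the other 3 genes lie below theirs, while the groups overlap.

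The members that encode LC3 and GABARAP proteins and their attachment machinery did not pass. MAP1LC3B, the main LC3 gene, had 26.3, 28.5 and 26.7 FPKM in shC8 and 25, 23.3 and 23.7 FPKM in shCTR, which did not overlap (difference 0.17, SE 0.0631, limma adjusted p = 0.12). A near-identical copy, MAP1LC3B2, could share its reads. ATG5, which joins ATG12 to form the attachment enzyme, had 45, 44.9 and 43.5 FPKM in shC8 and 40.4, 39.6 and 37.7 FPKM in shCTR, also without overlap (difference 0.18, SE 0.0575, limma adjusted p = 0.0865, and 0.0359 with the block). GABARAPL1, which likewise has a near-identical copy in GABARAPL3, differed by 0.18 (SE 0.112), ATG16L1, which places the attachment enzyme on the membrane, by 0.12 (SE 0.073) and ATG12 by -0.06 (SE 0.0754). Over the 12 tested autophagy genes, 1 was higher and 0 lower by limma, with 4 and 0 at an unadjusted p under 0.05 (18.3% and 11.4% of all genes). Their median was 0.08, near the 0.04 of all genes. With the block 3 were higher and 2 lower, where 16.1% and 10.6% of all genes were.

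Other genes of the pathway, taken from lists of 150 symbols, follow by group. Of 31 further hydrolases and cofactors tested, 7 were higher and 2 lower (22.6% and 6.45%, against 7.14% and 4.94% of all genes), with a median of 0.21. With the block 15 were higher and 3 lower, where 16.1% and 10.6% of all genes were. LGMN, the asparaginyl protease legumain, had 19.5, 19.1 and 21.2 FPKM in shC8 against 13.1, 12.4 and 14.3 FPKM in shCTR (difference 0.56, SE 0.0745, limma adjusted p = 0.00602). ARSB, the arylsulfatase that trims dermatan sulfate, went the other way, at 12.6, 12.8 and 12.7 FPKM in shC8 against 19.3, 21.8 and 21.5 FPKM in shCTR (difference -0.67, SE 0.0678, limma adjusted p = 0.00248). In both genes the libraries of a group lay close together and the groups far apart. CTSF, the cathepsin F gene, and the alpha-mannosidase gene MAN2B1 were higher by 0.47 and 0.45. Among other cathepsin genes, CTSO passed as lower (difference -0.41, SE 0.102, limma adjusted p = 0.0425). Its call held in 1 of the 6 fits without 1 library (adjusted p up to 0.129). CTSV, listed as CTSL2, was below the minimum level and was not tested. It had 1.15, 1.21 and 1.04 FPKM in shC8 against 0.712, 0.684 and 0.725 FPKM in shCTR, without overlap. With no filter on low values CTSV passed as higher (difference 0.32, limma adjusted p = 0.0312). CTSL, listed as CTSL1, had 303, 250 and 213 FPKM in shC8 against 375, 321 and 320 FPKM in shCTR, without overlap. It did not pass (difference -0.42, SE 0.134, limma adjusted p = 0.0848, and 0.00965 with the block).

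Among 25 further membrane and transport genes 4 were higher and 2 lower, with a median of 0.13. These are 16% and 8%, against 7.14% and 4.94% of all genes. SLC36A1, a lysosomal amino acid transporter linked to mTORC1, had 4.2, 3.94 and 4.3 FPKM in shC8 against 2.35, 2.18 and 2.31 FPKM in shCTR (difference 0.65, SE 0.0769, limma adjusted p = 0.00411). LAPTM4B, a lysosomal membrane protein gene, differed by 0.47, GNPTG, a subunit of the enzyme that tags hydrolases for the lysosome, by 0.42 and the channel gene TPCN1 by -0.37. Of 17 V-ATPase genes 2 were higher and 1 lower (11.8% and 5.88%, not far from the shares of all genes), and 1 and 1 with either scaling. Under the block 6 were higher and 1 lower, where 16.1% and 10.6% of all genes were. ATP6AP1, an accessory subunit, had 41.3, 43.3 and 43 FPKM in shC8 against 23.7, 28.7 and 29 FPKM in shCTR (difference 0.64, SE 0.0855, limma adjusted p = 0.00611). The accessory gene ATP6AP2 differed by 0.27 and the membrane-sector gene ATP6V0A2 by -0.38. Every one of these genes had groups that did not overlap, but they were named because they passed, so this adds no separate support. Of all genes, 21.7% did not overlap with shC8 higher and 13.1% with shC8 lower.

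Of 22 tested genes of mTORC1 and its lysosomal regulators, 3 were higher and 0 lower by limma, or 13.6% higher against 7.14% of all genes. Under the block 6 were higher and 0 lower, where 16.1% and 10.6% of all genes were. At an unadjusted p under 0.05 they were 4 and 0, and 4 of 22 is close to the 18.3% of all genes. DEPTOR, an inhibitory subunit, had 5.41, 3.47 and 5.53 FPKM in shC8 against 2.03, 1.75 and 2.69 FPKM in shCTR (difference 0.87, SE 0.174, limma adjusted p = 0.0217). FLCN, the folliculin gene, and FNIP2, the gene of its binding partner, differed by 0.40 and 0.55. Of 40 further autophagy genes 2 were higher, ATG9A, which carries membrane to the growing vesicle, by 0.38 and the LC3 gene MAP1LC3A by 0.37, and 0 were lower by limma (10 and 3 at an unadjusted p under 0.05, where all genes had 18.3% and 11.4%). That is 5% higher, against 7.14% of all genes. With the block 7 were higher and 2 lower, where 16.1% and 10.6% of all genes were. With quantile normalization 2 were higher and 2 lower, where 715 and 731 of all 11598 genes were. Of the 16 genes named by rule from these lists, ARSB, LGMN, LAPTM4B, SLC36A1, ATP6AP1, ATP6V0A2 and FNIP2 kept their call in each fit without 1 library. The other 9 kept it in between 1 and 4 of 6 such fits, with adjusted p up to 0.137. Without 1 library, 1 to 3 further hydrolases, 2 or 3 membrane and transport genes, 1 or 2 V-ATPase genes, 1 or 2 mTORC1 genes and 0 to 2 further autophagy genes were higher. Of all 11598 genes, 261 to 699 were higher in those fits.

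**Figure D5:**
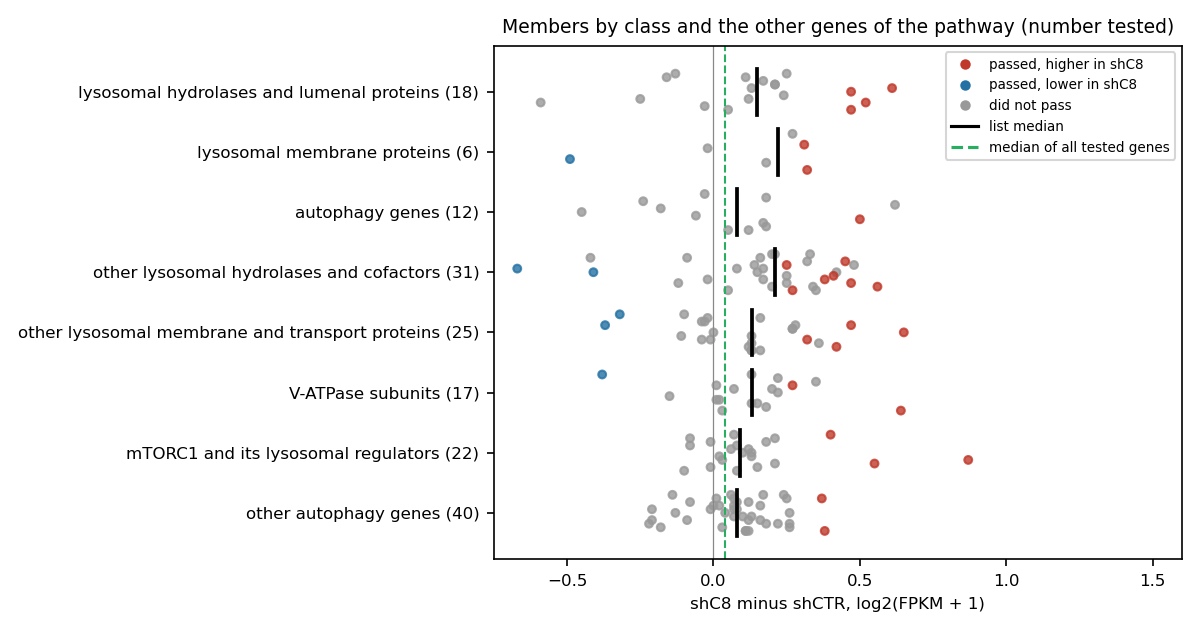
Differences between shC8 and shCTR on the log2(FPKM + 1) scale for the 3 classes of members and 5 lists of other pathway genes, with the number tested in parentheses. Points are genes (red passed and higher in shC8, blue passed and lower, grey did not pass), black bars list medians and the dashed line the median of all tested genes, 0.04. Hydrolase lists reach 0.15 and 0.21, while both autophagy lists stand at 0.08.

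TCACGTGA was also found in front of 14 of the 110 list genes that have a promoter window, or 12.7%, against 1.18% of all 27305 genes with one. Among tested genes it was 14 of 104, or 13.5%, against 2.47%. Of these 14 genes SLC36A1 and GNPTG were higher in shC8 by limma and 12 did not pass. Beside this, 8.82% of all 204 tested genes with TCACGTGA were higher, and 7.03% of all tested genes with a window. Whether the motif goes with the calls was not tested. CLN3, a membrane protein gene mutated in Batten disease, had a difference of 0.36 (SE 0.133) and RRAGB, a Rag GTPase of the mTORC1 pathway, of -0.08 (SE 0.0905), neither of which passed (limma adjusted p = 0.122 and 0.58).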

How the data were processed

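Stranded libraries were made from ribosome-depleted total RNA of 6 U87 samples, per the labels' protocols. The authors deposited FPKM per gene symbol. The submitters' processing notes name TopHat, Cufflinks, Cuffdiff and hg38, with no versions or roles. For annotation, strand setting and further normalization, nothing was stated in the sources used here. Since read counts cannot be had from FPKM, count models were not used. Every sample column was used. Positions come from GENCODE 29 (GRCh38).

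Tests (limma, trended moderation, two-sided) used log2(FPKM + 1) of the 11598 genes that averaged 1 FPKM or more, and a call needs p under 0.05 after Benjamini-Hochberg adjustment over all of them. This scale understates changes of genes with low values. The members, lists and tests were chosen with earlier results of these data known. CASP8, all members and, per list, up to 4 passing genes with the largest differences were named by rule. PLTP, NEURL2, RMC1, the marker genes, CTSL, CTSO, CTSV, CLN3, RRAGB and the cystatins were chosen once values had been seen. Older symbols matched 7 list genes.

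Same-numbered libraries deviated together from their group means (correlations across genes of 0.397, 0.266 and 0.291, each above 0.1). On that evidence the numbers were treated as pairing the samples, which no label states. Numbers in the column names fall into a lower range (shC8 1, shCTR 1 and 3) and an upper range (shC8 2 and 3, shCTR 2) of unstated meaning. Alternatives were a pseudocount of 0.1, no filter, a minimum mean of 5 FPKM, 2 scalings, the replicate block, the column number range, no mean trend and each library left out. On simulated data with 200 of 11598 genes changed between shC8 and shCTR, the test recovered 50% of 100 genes changed by 0.5 and 89% of 100 changed by 1. Of the calls on simulated data 3.47% were false. Fewer genes were changed there than the 1401 called here, and the libraries were drawn independently. These shares may therefore not hold for the deposited data. R 4.3.3, limma 3.58.1 and Python 3.11.15 were used.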

Additional observations from a re-analysis of the deposited data

How the results depend on the processing

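CASP8 kept its direction and call under every alternative. With the replicate block, 1862 genes were higher and 1224 lower, and 13 members were higher and 3 lower, including all 8 called without it. The 8 further members were CTSD, GLB1, HEXA, SCARB2, MITF, SQSTM1, ATG5 and ATG7. With no filter on low values, where 18724 genes were tested, 4 members were higher and 0 lower. With the column number range in the fit, 7 members were higher and 0 lower (limma). Without 1 library, all genes higher numbered 261 to 699 and all genes lower 216 to 647, members higher 2 to 7 and members lower 0 to 2. The median of the hydrolases and lumenal proteins then lay between 0.104 and 0.214, that of the membrane proteins between 0.188 and 0.233 and that of the autophagy genes between 0.041 and 0.112. The sign changed for members near 0: GLA with the column number range in the fit (0.022) and, in fits without 1 library, TPP1 (-0.293 to 0.054), GLA (-0.11 to 0.021, with 0.019 as the other positive value), GUSB (-0.045 to 0.126), NPC2 (-0.051 to 0.218) and CD63 (-0.067 to 0.013, with 0.004 as the other positive value). The cause was not tested. No other member reversed under the alternatives run. Absolute depth was unknown, so no counting error is given for the scarce genes CTSH, CTSZ and TFEB.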

Other observations

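Cystatins, the inhibitors of cysteine cathepsins, were mostly absent: CST4 and CST7 were listed at 0 in every library, and CST1, CST2 and CST6 stayed under 0.3 FPKM. CST3, the gene of the secreted cystatin C, had 64.7, 65.9 and 58 FPKM in shC8 and 48.5, 61.7 and 53.6 FPKM in shCTR (difference 0.20, SE 0.0985, limma adjusted p = 0.212). CSTB, the gene of the intracellular inhibitor cystatin B, had 413, 330 and 258 FPKM in shC8 1, 2 and 3, against 760, 493 and 347 FPKM in shCTR 1, 2 and 3. It was lower in shC8 in each pair and its groups overlapped, with replicate 1 highest and replicate 3 lowest in both groups (difference -0.63, SE 0.284, limma adjusted p = 0.189, and 0.00703 with the replicate block).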
